A study of Homo sapiens with 13 samples.

Results

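The comparison set 5-fluorouracil (5-FU) directly against chloroquine, each given alone for 48 h to cells labelled TE11, the name of a line from a human squamous carcinoma of the esophagus. It used 6 of the 13 libraries of the study, 3 of cells in 25 µM 5-FU and 3 of cells in 10 µM chloroquine, chosen by the treatment in the labels, and all genes. The other libraries came from the same cells in both drugs at these doses (combination, n = 3) and in 0.1% DMSO (vehicle, n = 4). Each drug was given at 1 dose and 1 time, and the doses differ, so the values describe these exposures and not the drugs at matched effect. The labels number the libraries of a group and do not say whether they came from separate cultures; the p-values then reflect only how far these libraries vary, which may be technical. The labels name no introduced allele or construct in any group.

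5-FU is a pyrimidine analogue. Its metabolites inhibit thymidylate synthase, enter DNA, and are built into RNA, where they disturb the maturation of ribosomal RNA; damaged DNA and free ribosomal proteins both stabilise the transcription factor p53. Chloroquine is a weak base that gathers in acidic lysosomes, raises their pH and holds back the degradation of what autophagy and endocytosis bring there, cholesterol of lipoproteins included. The study's title concerns chloroquine given together with 5-FU and p53 signalling, and setting the single drugs side by side shows which genes differed between them.

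The 5-FU libraries held 19507898, 20250837 and 23679833 counts, and the chloroquine libraries 21828931, 22191857 and 17834539. The table lists 60591 genes, of which 20102 were empty in the 13 libraries and 19514 were tested. Levels are given as CPM (counts relative to library size, scaled by TMM), in library order, and fold changes are log2 ratios of 5-FU over chloroquine with their standard error (SE), so that a positive value means a higher level with 5-FU. A gene was called when edgeR's quasi-likelihood test, adjusted by Benjamini-Hochberg over all tested genes, gave a p below 0.05.

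Transcripts that cultured carcinoma cells should lack stood in some of these libraries. COL1A2, a fibrillar collagen chain of fibroblasts, had 1, 159 and 3 counts in the 5-FU libraries and 607, 450 and 4 counts in the chloroquine libraries. AMY1A, a salivary amylase, had 1, 292 and 4 counts with 5-FU and 247, 146 and 1 with chloroquine. HBB, the beta chain of hemoglobin, had 1, 0 and 0 counts with 5-FU and 136, 88 and 0 with chloroquine. The libraries were split by COL1A2 into those with many counts of it (5-FU library 2 and chloroquine libraries 1 and 2) and those with few (5-FU libraries 1 and 3 and chloroquine library 3). AMY1A followed this split. So did PTPRC, a leukocyte marker, with 0, 16 and 1 counts with 5-FU and 17, 21 and 0 with chloroquine. The 14 hepatocyte and pancreatic acinar markers together had 32, 565 and 30 counts with 5-FU and 468, 282 and 19 with chloroquine. Some markers, HBB among them, did not set 5-FU library 2 apart. COL1A1, another collagen chain, had 557, 650 and 560 counts with 5-FU and 895, 681 and 186 with chloroquine, and the 8 erythroid markers together had 72, 55 and 79 counts with 5-FU and 218, 148 and 24 with chloroquine. The 10 fibroblast markers together had 628 to 925 counts with 5-FU and 227 to 2133 with chloroquine, and the 6 of them that were tested gave no call, with a median log2 fold change of -2.43. In bulk libraries fewer cells of a type and less RNA per cell cannot be told apart. The label was also set against markers of squamous epithelium. KRT5, a basal keratin, had 0 counts in each 5-FU library and 2, 0 and 0 counts in the chloroquine libraries. KRT14, another basal keratin, had 0 counts in each 5-FU library and 6, 3 and 0 with chloroquine. TP63, a transcription factor of basal epithelium, had 1, 3 and 0 counts with 5-FU and 0, 2 and 0 with chloroquine. Of 30 genes of squamous differentiation, 23 had at most 10 counts in all 13 libraries. VIM, the mesenchymal intermediate filament vimentin, had 735 to 821 CPM with 5-FU and 657 to 711 CPM with chloroquine. Of 17 genes of basal squamous epithelium, in contrast, only 4 had at most 10 counts in all 13 libraries. The 12 of them that were tested had a summed level of 351 to 399 CPM with 5-FU and 467 to 482 CPM with chloroquine. The squamous label is thus not borne out by KRT5, KRT14, TP63 and the differentiation genes, and the basal list as a whole does not settle it. The cells are called here by their label.

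The single drugs left the cells with different transcriptomes. Of 19514 tested genes, 10684 (54.8%) were called, 5296 (27.1%) higher and 5388 (27.6%) lower with 5-FU. The levels of 11453 genes (58.7%) did not overlap between the 3 and 3 libraries. Scaling by library size alone, which moved the median of all genes by 0.096 on the log2 scale, gave 6449 higher and 4341 lower. Large differences lay more often on the side of 5-FU, since 1352 genes were called with a log2 fold change of at least 1 and 815 of at most -1. At 2 and -2 these counts were 279 and 71. The median over all tested genes was -0.01. Because more than every other gene was called, a count of called members of a gene group is given with its direction and is to be read against these percentages.

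**Figure D1:**
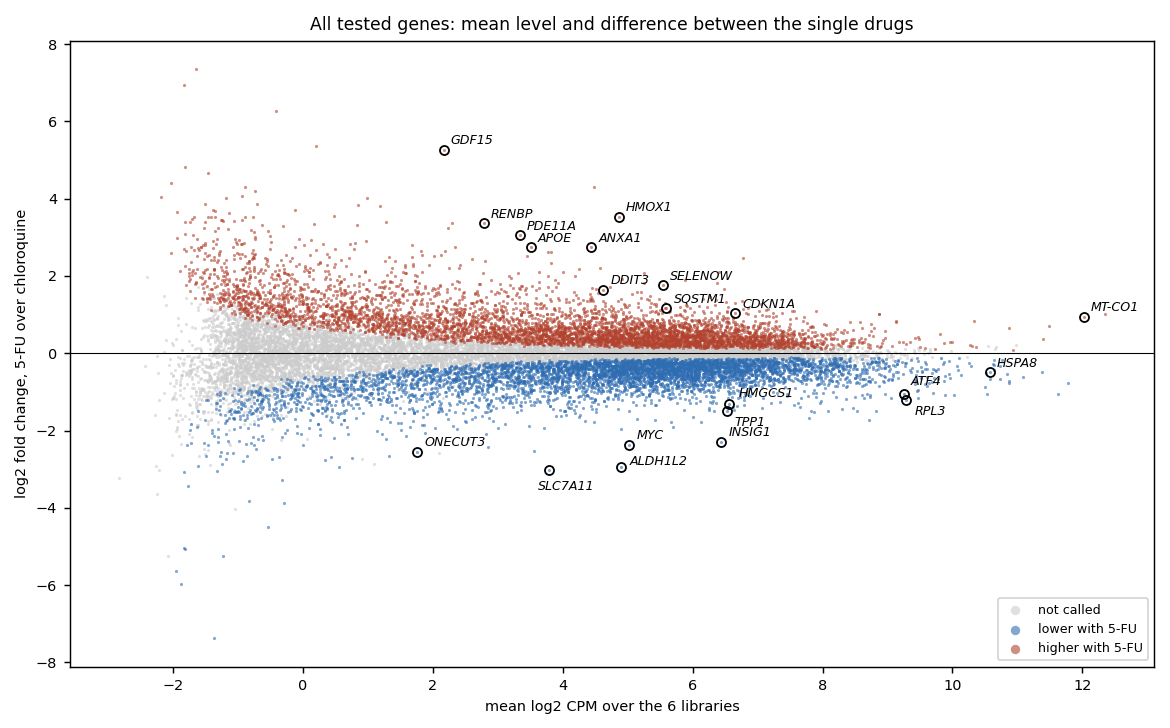
Mean level over the 6 libraries (log2 CPM, horizontal) and log2 fold change of 5-FU over chloroquine (vertical), 1 point per tested gene. Red points were called higher with 5-FU, blue points lower, grey points were not called, and circled genes are described in the text. GDF15 and HMOX1 stand at the upper edge, and SLC7A11, ALDH1L2, MYC and INSIG1 at the lower edge.

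Once the kind of library by COL1A2 entered the model, 11339 genes were called, and 10490 of the 10684 stayed called in the same direction. Within a kind of library there is 1 library on a side, chloroquine 3 among those with few COL1A2 counts and 5-FU 2 among those with many. Values within a kind are therefore given below as folds without a test. The sign of a called gene in them carries no further information, since 10157 of the 10684 did not overlap between the groups.

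p53 target genes stood higher with 5-FU. Of 38 tested genes of the list, 23 rose, 2 fell and 13 were not called, and their median log2 fold change was 0.41. CDKN1A, which encodes the cyclin-dependent kinase inhibitor p21, had 157, 131 and 144 CPM with 5-FU and 76.1, 68.5 and 66.7 CPM with chloroquine. The groups did not overlap, and the log2 ratio was 1.03 ± 0.07 (SE; edgeR adjusted p = 3.47e-08). Both drugs stood above vehicle for this gene, where the 4 libraries had 30.6 to 32.9 CPM. GDF15, a secreted stress cytokine of the TGF-beta family, had 30.7, 24.1 and 24.8 CPM with 5-FU and 0.872, 0.588 and 0.565 CPM with chloroquine, and the log2 ratio was 5.27 ± 0.19 (edgeR adjusted p = 9.61e-11). Chloroquine was near the vehicle level for GDF15, which was 0.171 to 0.584 CPM. At chloroquine levels this low, the size of the GDF15 ratio is less firm than its direction. TP53I3, a quinone oxidoreductase named for its induction by p53, had 29.7, 23.6 and 24.5 CPM with 5-FU and 4.59, 4.25 and 4.75 CPM with chloroquine.

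Other members moved less. MDM2, the ubiquitin ligase that limits p53, had a log2 ratio of 0.60 ± 0.08 (edgeR adjusted p = 1.33e-05), and BAX, which permeabilises the outer mitochondrial membrane, one of 0.45 ± 0.11 (edgeR adjusted p = 0.00254). BBC3, the pro-apoptotic protein PUMA, had 28.0, 18.9 and 22.4 CPM with 5-FU and 22.4, 20.9 and 21.5 CPM with chloroquine. These ranges overlapped and the log2 fold change was 0.09 ± 0.11 (edgeR adjusted p = 0.515), while both drugs lay above the 12.2 to 13.5 CPM of vehicle. The 2 members that fell were APAF1, the adaptor of caspase-9 (-0.49 ± 0.05), and SPATA18, a mitochondrial quality control factor (-0.47 ± 0.10). Over vehicle, the median of the list was 0.61 with 5-FU and 0.20 with chloroquine; both values share the same vehicle libraries.

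The wider machinery of apoptosis was split. Of 25 tested members of the BCL2 family and caspases, 7 rose, 9 fell and 9 were not called. DIABLO, which relieves the block of caspases by inhibitor of apoptosis proteins, stood higher with 5-FU by a log2 of 1.14 ± 0.13, and CASP10, an initiator caspase, by 1.01 ± 0.12. HRK, a BH3-only protein, had 11.1, 13.3 and 10.8 CPM with 5-FU and 23.6, 22.5 and 22.4 CPM with chloroquine, and the log2 ratio was -0.96 ± 0.11 (edgeR adjusted p = 5.54e-06). BCL2L11, the BH3-only protein BIM, fell by 0.75 on the log2 scale (SE 0.05).

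**Figure D2:**
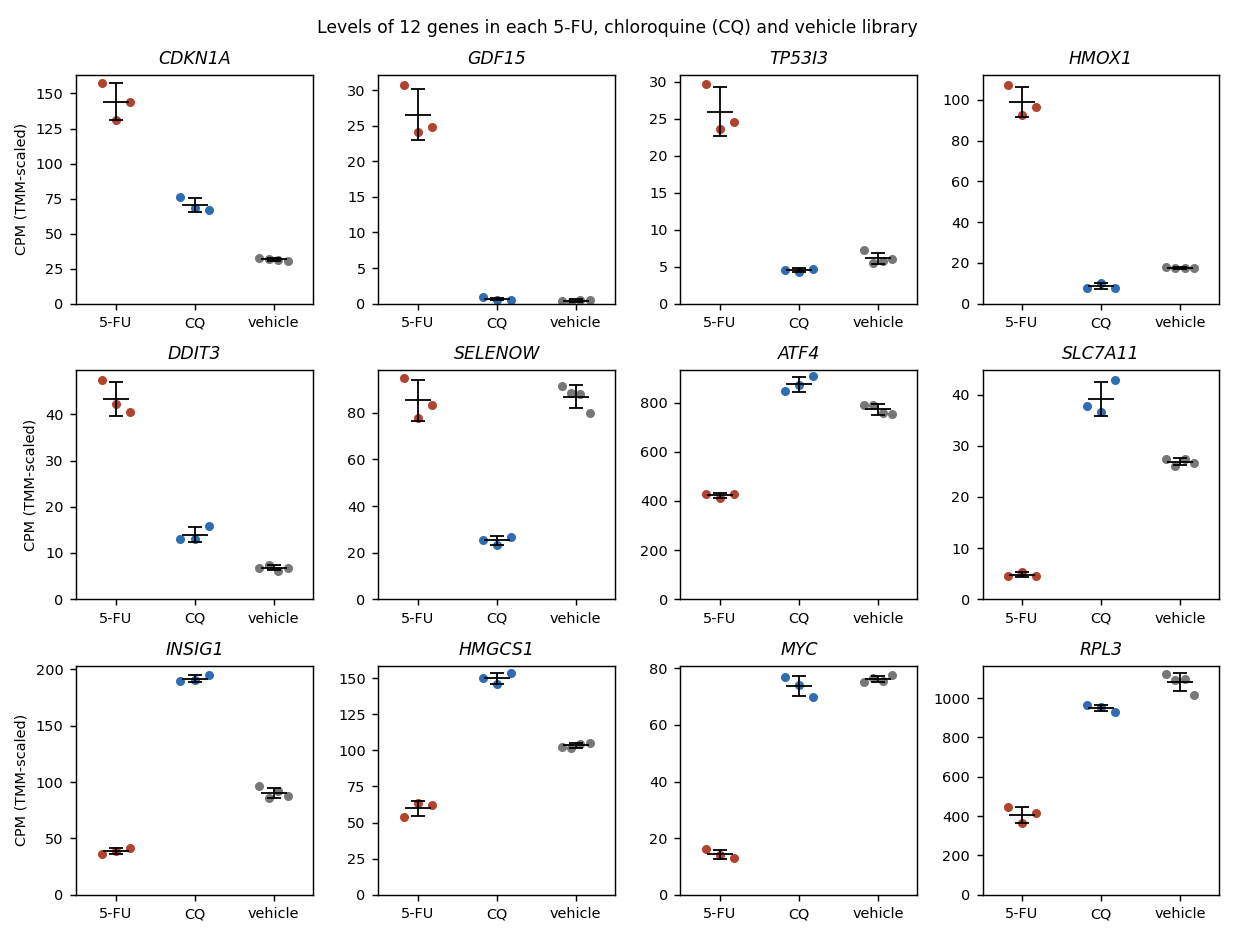
CPM of 12 genes in each 5-FU, chloroquine (CQ) and vehicle library; points are libraries, and the bars give the mean and SD of 3, 3 and 4 libraries. In each panel the 5-FU points lie apart from the chloroquine points, above them in CDKN1A, GDF15, TP53I3, HMOX1, DDIT3 and SELENOW and below them in the other 6.

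Genes of the response to amino acid shortage stood lower with 5-FU. ATF4 is a transcription factor whose translation rises when the initiation factor eIF2 is phosphorylated, and it drives the synthesis and import of amino acids; ATF4 mRNA itself had 428, 411 and 426 CPM with 5-FU and 845, 870 and 907 CPM with chloroquine. The log2 ratio was -1.05 ± 0.05 (edgeR adjusted p = 4.89e-10). Of 27 tested genes of the ATF4 list, 20 fell, 5 rose and 2 were not called, with a median log2 fold change of -1.23 against -0.01 over all tested genes. Over vehicle the median was -0.60 with 5-FU and 0.44 with chloroquine, so the gap had a part on each side of the shared vehicle libraries.

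SLC7A11, the cystine importer, had 4.50, 5.38 and 4.55 CPM with 5-FU and 37.9, 36.7 and 42.9 CPM with chloroquine. It was among the lowest of all genes with 5-FU relative to chloroquine, at -3.02 ± 0.09 (edgeR adjusted p = 1.19e-11), and vehicle lay between, at 26.0 to 27.5 CPM. ALDH1L2, a mitochondrial enzyme of folate metabolism, had 8.86, 10.9 and 12.2 CPM with 5-FU and 83.1, 81.4 and 82.7 CPM with chloroquine (log2 fold change -2.94 ± 0.10). SLC6A9, a glycine transporter, had 5.62, 4.18 and 4.71 CPM with 5-FU and 28.0, 28.6 and 27.1 CPM with chloroquine (-2.53 ± 0.10). For these genes no 5-FU library came near a chloroquine library.

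CHAC1, which degrades glutathione, had 2.71, 3.13 and 3.15 CPM with 5-FU and 10.3, 11.4 and 8.70 CPM with chloroquine (-1.76 ± 0.14, edgeR adjusted p = 1.62e-07). Vehicle was at 2.80 to 3.55 CPM, so the 5-FU libraries overlapped the vehicle range for CHAC1 and the chloroquine libraries lay above it. ASNS, asparagine synthetase, was low throughout, with 1.84, 2.16 and 1.83 CPM in 5-FU and 4.64, 6.20 and 5.65 CPM in chloroquine (-1.5 ± 0.19). SHMT2, the mitochondrial serine hydroxymethyltransferase, showed another order, with 76.8 to 86.4 CPM with 5-FU, 214 to 220 CPM with chloroquine and 243 to 267 CPM in vehicle.

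The 5 members that rose went against the rest of the list. DDIT3, the pro-apoptotic transcription factor CHOP, had 47.5, 42.2 and 40.4 CPM with 5-FU and 12.9, 13 and 15.8 CPM with chloroquine, and the log2 ratio was 1.64 ± 0.09 (edgeR adjusted p = 3.98e-09). Both drugs exceeded vehicle, at 6.13 to 7.36 CPM. PPP1R15A, the phosphatase subunit GADD34 that reverses eIF2 phosphorylation, had 110 to 125 CPM with 5-FU, 68.0 to 80.7 CPM with chloroquine and 32.5 to 38.3 CPM in vehicle (0.68 ± 0.09). The other 3 were the transcription factors ATF3 (0.52) and ATF5 (0.48) and SLC3A2, the heavy chain of several amino acid transporters (0.52), named here to complete the count after their values were seen.

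Promoter sequence was searched in 300-base windows around the start sites of RefSeq genes (GRCh38.p14) for the C/EBP-ATF response element to which ATF4 binds, written TGATGNAA and read on both strands. It was present in 6 of 22 ATF4-list genes with a window (27.3%) and in 1217 of 27305 genes overall (4.46%). Its first 5 letters alone, TGATG, were present in 31.8% of the ATF4-list genes and 37.7% of all genes. TCACGTG, a motif of lysosomal genes, was present in 8 of 25 lysosomal genes (32%) and 4.49% of all genes, and the lysosomal list had no lean in either direction. All 6 are shown, since they include members that fell and members that rose. Each run gives the gene's strand, 5′ to 3′, with the match in capitals. In CHAC1 and SLC3A2 the match is on the other strand and reads as its reverse complement. The runs are from ASNS (chr7:97872454-97872491, minus strand), CHAC1 (chr15:40953247-40953284, plus), JDP2 (chr14:75427991-75428028, plus), SLC7A1 (chr13:29595659-29595696, minus), ATF3 (chr1:212565201-212565238, plus) and SLC3A2 (chr11:62881721-62881748, plus).
ASNS: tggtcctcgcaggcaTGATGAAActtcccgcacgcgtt
CHAC1: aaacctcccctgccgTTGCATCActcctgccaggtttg
JDP2: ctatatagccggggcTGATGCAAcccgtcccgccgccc
SLC7A1: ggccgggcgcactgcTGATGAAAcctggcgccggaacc
ATF3: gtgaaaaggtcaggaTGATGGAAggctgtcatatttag
SLC3A2: aatgtgcaggactccTTACATCAgctcc
ASNS and SLC7A1, an arginine and lysine transporter, hold the same 8 letters and fell by 1.5 and 1.14 on the log2 scale. JDP2, a repressor of AP-1, fell by 1.54 and CHAC1 by 1.76, while ATF3 and SLC3A2 rose. A match describes letters in the window and no binding was measured.

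Importers of amino acids followed the same direction. Of 20 tested transporters, 14 fell, 3 rose and 3 were not called, with a median log2 fold change of -1.08; 5 of the 20 are also in the ATF4 list. Besides SLC7A11 and SLC6A9, members that fell include SLC7A5, the light chain of the large neutral amino acid transporter (-1.29 ± 0.07), and SLC1A5, a glutamine transporter (-1.35 ± 0.08), both picked after their values were seen. The largest rise was that of SLC43A2, a neutral amino acid transporter, with 14.3, 9.66 and 11 CPM with 5-FU and 6.24, 5.97 and 5.82 CPM with chloroquine. Of 20 tested cytosolic aminoacyl-tRNA synthetases, which charge tRNAs, 13 fell and 5 rose. IARS1, for isoleucine, had 343 to 358 CPM with 5-FU and 621 to 625 CPM with chloroquine, and AARS1, for alanine, had 309 to 379 CPM with 5-FU and 204 to 212 CPM with chloroquine.

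**Figure D3:**
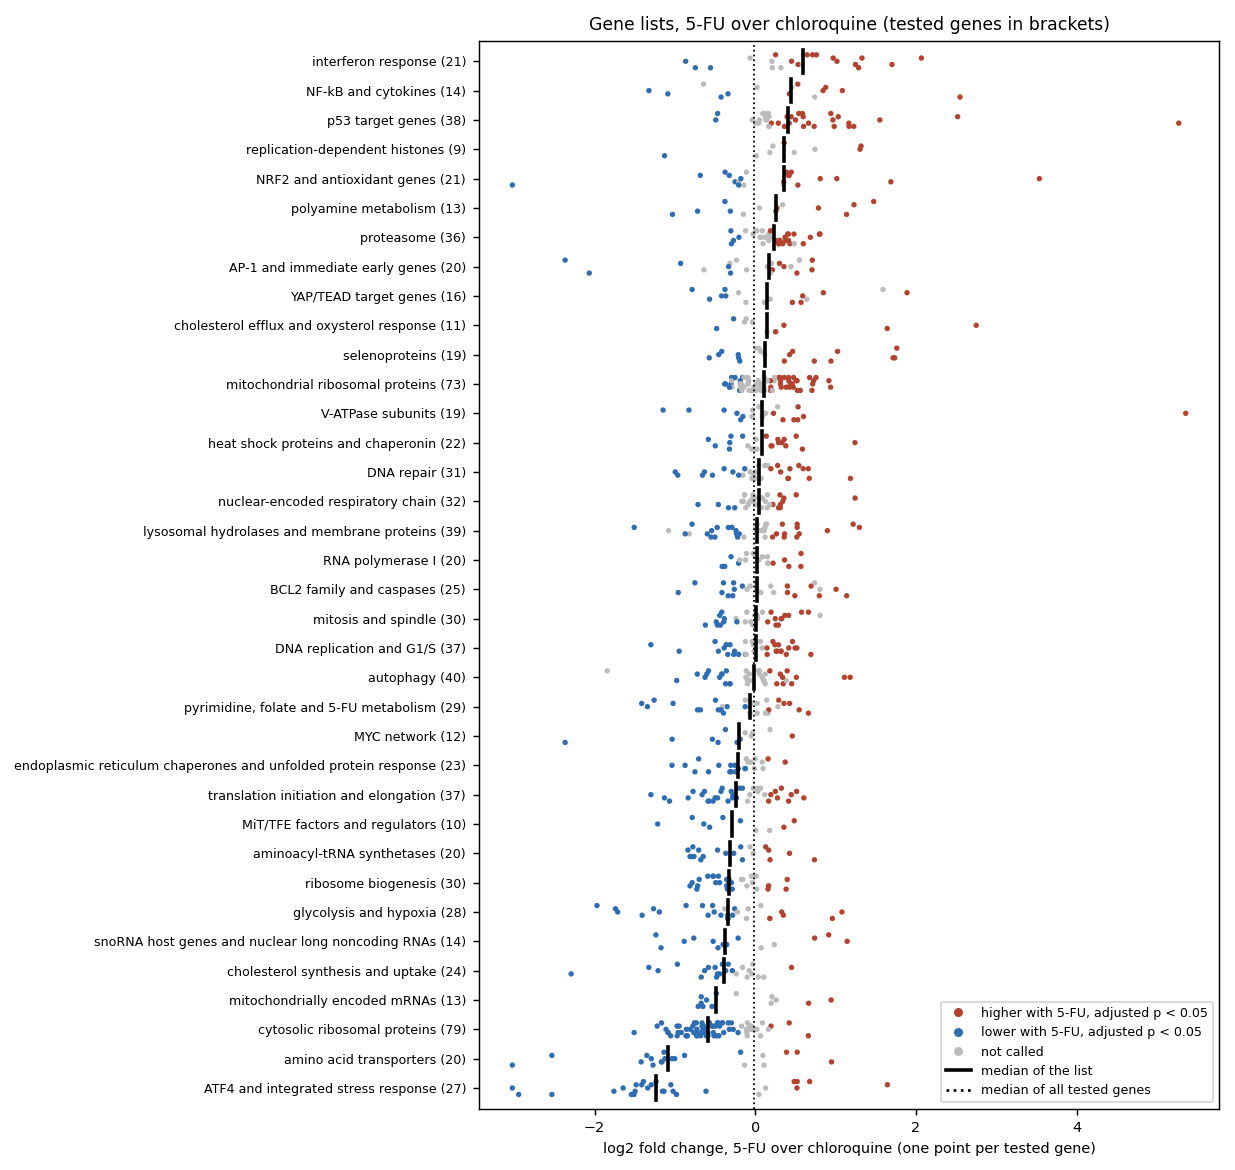
Log2 fold change of 5-FU over chloroquine for each tested gene of 36 lists, ordered by the list median (black bars; the dotted line is the median of all tested genes). The ATF4, amino acid transporter and cytosolic ribosomal protein lists lie at the bottom with medians of -1.23, -1.08 and -0.59, and the interferon list at the top with 0.59.

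Genes of cholesterol synthesis and uptake were lower with 5-FU. When sterols in the endoplasmic reticulum are scarce, SREBP-2 is released and raises these genes. Of 24 tested genes 15 fell, 1 rose and 8 were not called, and the median log2 fold change was -0.39. INSIG1, which retains the SREBP precursor and is itself a target of it, had 36.5, 39.0 and 41.9 CPM with 5-FU and 189, 191 and 195 CPM with chloroquine. Vehicle stood between them at 86.2 to 96.1 CPM, and the log2 fold change was -2.29 ± 0.06 (edgeR adjusted p = 6.16e-12). HMGCS1, the synthase before HMG-CoA reductase, had 53.7, 63.5 and 62.1 CPM with 5-FU and 150, 146 and 154 CPM with chloroquine, with vehicle at 102 to 105 CPM (-1.32 ± 0.06).

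For INSIG1 and HMGCS1 chloroquine lay above vehicle and 5-FU below it. The only member that rose was TM7SF2, a sterol reductase, by a log2 of 0.45 ± 0.09 (edgeR adjusted p = 0.00096). Genes that carry cholesterol out of cells included some of the larger rises. APOE, the apolipoprotein E, had 37.9, 24 and 26.6 CPM with 5-FU and 4.59, 3.44 and 5.20 CPM with chloroquine (2.75 ± 0.18, edgeR adjusted p = 1.83e-08). ABCG1, a sterol exporter, had 2.37, 2.21 and 2.79 CPM with 5-FU and 0.872, 0.588 and 0.904 CPM with chloroquine (1.64 ± 0.29). NPC2, which hands cholesterol out of lysosomes, went the other way, with 56.7 to 58.9 CPM with 5-FU and 76.4 to 82.6 CPM with chloroquine. Of 11 tested genes of the efflux list 4 rose, 2 fell and 5 were not called.

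MYC and the parts of the ribosome stood lower with 5-FU. MYC, a transcription factor that promotes growth and ribosome production, had 16, 14 and 13 CPM with 5-FU and 77.0, 73.9 and 70.0 CPM with chloroquine, and the log2 ratio was -2.37 ± 0.08 (edgeR adjusted p = 4.28e-11). Vehicle was at 75.3 to 77.7 CPM, so the chloroquine level was near it and the 5-FU level was not. MYCL, a relative of MYC, fell by 1.03 on the log2 scale (SE 0.13).

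Of 79 cytosolic ribosomal proteins, all tested, 61 fell, 3 rose and 15 were not called, and the median log2 fold change was -0.59. RPL3, a protein of the large subunit, had 445, 364 and 414 CPM with 5-FU and 964, 956 and 932 CPM with chloroquine (-1.22 ± 0.06, edgeR adjusted p = 1.73e-09), with vehicle at 1018 to 1122 CPM. RPL13A had 126, 130 and 146 CPM with 5-FU and 381, 368 and 395 CPM with chloroquine (-1.51 ± 0.08). Among the 3 that rose, RPL17 (0.42 ± 0.06) shares sequence with near-identical copies or read-through genes. Ribosomal proteins have many processed pseudogenes, and single members are uncertain, because the treatment of reads shared by copies is not stated. The processed pseudogenes that were tested made up 4.31 ± 0.08% of the counts with 5-FU and 5.59 ± 0.09% with chloroquine (SD, n = 3 each).

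Ribosome biogenesis factors followed, with 18 of 30 lower, 4 higher and a median log2 fold change of -0.33. NPM1, a nucleolar chaperone, had 455, 588 and 574 CPM with 5-FU and 856, 866 and 902 CPM with chloroquine (-0.70 ± 0.07), and both drugs lay below the 1228 to 1309 CPM of vehicle. UTP20, a factor of small subunit processing, had 39.7 to 42.9 CPM with 5-FU and 68.6 to 73.6 CPM with chloroquine. Among translation factors 21 of 37 fell and 9 rose. EIF3L, a subunit of eIF3, had 129, 124 and 126 CPM with 5-FU and 314, 317 and 300 CPM with chloroquine (-1.30 ± 0.05), whereas EIF5, which acts in start codon selection, rose by 0.60 ± 0.05 with 374 to 417 CPM with 5-FU and 253 to 268 CPM with chloroquine. The subunits and factors of RNA polymerase I, which transcribes ribosomal RNA, were not one-sided, with 5 of 20 higher, 4 lower and a median of 0.02.

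Mitochondrial ribosomal proteins went the other way from the cytosolic ones, with 29 of 73 higher, 10 lower and a median log2 fold change of 0.11, but over vehicle both drugs had negative medians, -0.21 with 5-FU and -0.34 with chloroquine. MRPL47 had 74.8, 91.0 and 84.9 CPM with 5-FU, 44.1, 42.4 and 44.5 CPM with chloroquine, and 67.2 to 75.7 CPM in vehicle. Proteasome subunits had the same pattern. Of 36 tested, 19 rose, 4 fell and 13 were not called, with a median of 0.24 directly and of -0.18 (5-FU) and -0.36 (chloroquine) over vehicle. PSMB6, a catalytic beta subunit, had 143, 117 and 136 CPM with 5-FU, 75, 77.5 and 75.6 CPM with chloroquine and 110 to 129 CPM in vehicle. Both lists thus had negative medians with either drug, with chloroquine the lower.

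**Figure D4:**
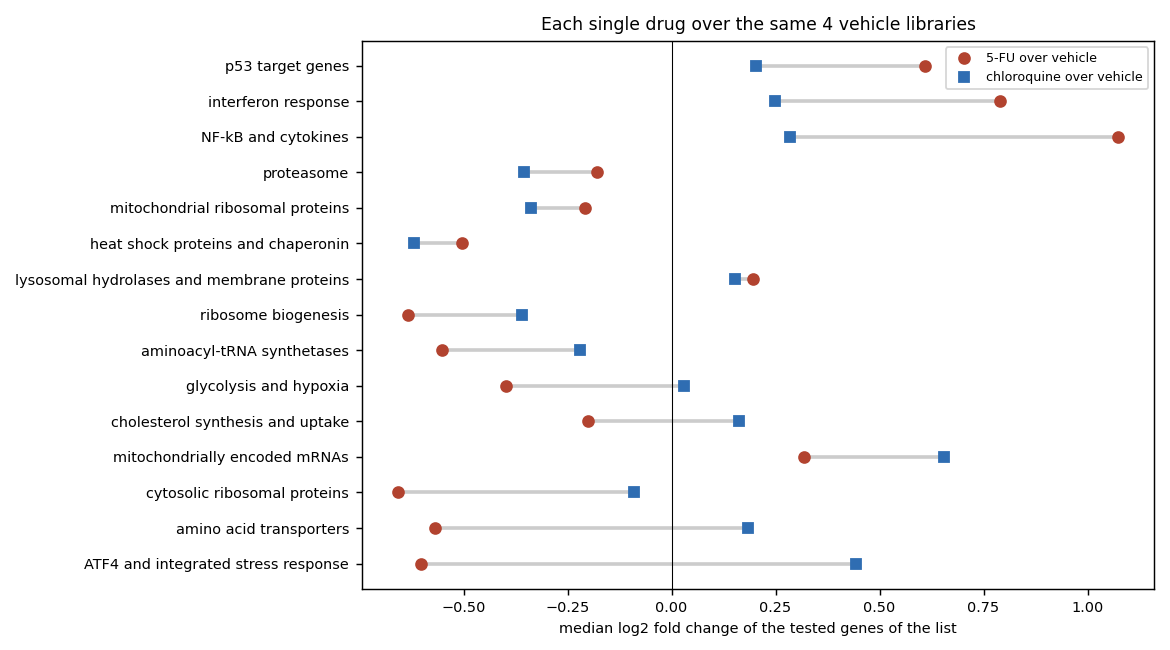
Median log2 fold change over the same 4 vehicle libraries of the tested genes of 15 lists, for 5-FU (red circles) and chloroquine (blue squares). The markers lie on opposite sides of 0 for the ATF4 list (-0.60 and 0.44), amino acid transporters, cholesterol synthesis and glycolysis, and on the same side for the other lists shown.

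Enzymes of pyrimidine and folate metabolism, the pathway 5-FU enters, had 6 of 29 higher and 12 lower. TYMS, thymidylate synthase, had 131, 117 and 119 CPM with 5-FU and 92.4, 94.3 and 86.2 CPM with chloroquine (0.43 ± 0.05, edgeR adjusted p = 1.33e-05). TK1, thymidine kinase, had 242, 165 and 195 CPM with 5-FU and 138, 136 and 139 CPM with chloroquine, and UCK1, a uridine-cytidine kinase, rose by 0.66 ± 0.07. The lower members included mitochondrial enzymes of the folate cycle. MTHFD1L had 20.7 to 23.6 CPM with 5-FU and 54.7 to 57.2 CPM with chloroquine (-1.34 ± 0.06).

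Replication, mitosis and repair lists were close to even, with 15 of 37 higher and 12 lower, 11 of 30 higher and 9 lower, and 11 of 31 higher and 9 lower. POLA1, the catalytic subunit of DNA polymerase alpha, had 52.1, 52.7 and 52.1 CPM with 5-FU and 129, 127 and 131 CPM with chloroquine (-1.30 ± 0.06), while POLD1, that of DNA polymerase delta, had 282, 193 and 210 CPM with 5-FU and 140, 141 and 143 CPM with chloroquine (0.69 ± 0.11). SMUG1, a glycosylase that removes uracil and 5-fluorouracil from DNA, had 67.7, 54.5 and 61.0 CPM with 5-FU and 26.1, 25.9 and 28.8 CPM with chloroquine (1.18 ± 0.09, edgeR adjusted p = 6.26e-08). ATR and ATM, the large kinases that signal damaged DNA, had 40.9 to 47.8 and 39.9 to 49.5 CPM with 5-FU, against 86.7 to 92.2 and 83.6 to 91.2 CPM with chloroquine. CCND1, cyclin D1, had 51.0 to 56.3 CPM with 5-FU and 104 to 106 CPM with chloroquine (-0.95 ± 0.06).

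Lysosomal and autophagy genes did not lean to either drug in the direct comparison. Over vehicle the lysosomal median was 0.20 with 5-FU and 0.15 with chloroquine. The autophagy median was -0.01 with 5-FU and 0.04 with chloroquine. Of 39 lysosomal genes 12 rose, 14 fell and 13 were not called with a median log2 fold change of 0.02, and the median was -0.08 in the libraries with many COL1A2 counts alone. Of 19 subunits of the V-ATPase, the proton pump of lysosomes, 7 rose and 6 fell, and of 40 autophagy genes 10 rose and 12 fell. TPP1, a lysosomal peptidase, had 51.5, 54.9 and 58.5 CPM with 5-FU and 160, 169 and 140 CPM with chloroquine (-1.51 ± 0.08, edgeR adjusted p = 4.36e-09). IDUA, which degrades glycosaminoglycans, had 41.7, 29.8 and 32.6 CPM with 5-FU, 15, 16.5 and 13.1 CPM with chloroquine and 5.99 to 6.54 CPM in vehicle. GPNMB, a membrane glycoprotein known to rise in lysosomal stress, was low, with 4.12, 4.87 and 4.35 CPM with 5-FU and 2.07, 1.86 and 1.47 CPM with chloroquine.

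SQSTM1, the autophagy receptor p62, had 83.4, 63.3 and 71.4 CPM with 5-FU and 30.9, 31.7 and 33.7 CPM with chloroquine, and the log2 ratio was 1.18 ± 0.10 (edgeR adjusted p = 2.65e-07). The chloroquine level of SQSTM1 mRNA was close to the 33.1 to 36.3 CPM of vehicle. MAP1LC3B, the LC3B protein of autophagosomes, differed less (0.27 ± 0.07), and its log2 fold change was 0.21 in the libraries with few COL1A2 counts alone. ATP6V0D2, a V-ATPase subunit of restricted expression, had 6.15, 6.76 and 5.78 CPM with 5-FU and 0, 0.271 and 0.17 CPM with chloroquine, too low there for a firm ratio. Of 10 tested MiT/TFE factors and regulators 6 fell, 2 rose and 2 were not called, with a median log2 fold change of -0.29. FNIP2, a partner of folliculin in the control of TFEB and TFE3, fell by 1.22 ± 0.07 and TFE3 itself rose by 0.48 ± 0.07. TFEB was low in both groups, at 1.70 to 2.23 CPM with 5-FU and 2.62 to 4.24 CPM with chloroquine. It was called lower with 5-FU (-0.78, edgeR adjusted p = 0.0036).

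Oxidative stress genes diverged from each other. HMOX1, heme oxygenase 1, had 107, 92.8 and 96.7 CPM with 5-FU and 7.76, 10.2 and 7.52 CPM with chloroquine (3.54 ± 0.09, edgeR adjusted p = 6.16e-12). The 4 vehicle libraries had 17.3 to 17.9 CPM, so 5-FU lay above and chloroquine below them. NQO1, a quinone reductase, had 16.7, 19.0 and 17.5 CPM with 5-FU and 4.91, 4.98 and 6.78 CPM with chloroquine (1.69 ± 0.12). With SLC7A11 and TKT, transketolase (-0.68 ± 0.07), among the 7 that fell and 10 that rose, the NRF2 list of 21 tested genes had a median of 0.35. That median was not stable. It was 0.06 without 5-FU library 3, 0.14 without 5-FU library 1 and 0.08 to 0.18 when any 1 chloroquine library was left out. Leaving out combination library 3, which is not part of the contrast, gave 0.12. Each refit chose its tested genes anew, so the members behind these medians may differ. SELENOW, a small selenoprotein, had 94.8, 77.8 and 83.6 CPM with 5-FU and 25.5, 23.3 and 26.8 CPM with chloroquine (1.76 ± 0.08). Its 5-FU libraries overlapped the vehicle range of 79.8 to 91.4 CPM.

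Of 22 heat shock proteins and chaperonins 11 rose, 6 fell and 5 were not called, with a median log2 fold change of 0.08. HSPA1A, an inducible HSP70, had 51.0, 41.8 and 42.7 CPM with 5-FU and 44.7, 44.3 and 45.5 CPM with chloroquine, and vehicle had 167 to 180 CPM. The single drugs overlapped (0.01 ± 0.07, edgeR adjusted p = 0.913) and both lay below vehicle; HSPA1A and HSPA1B are near-identical, so reads may have been divided between them. HSPB1, the small heat shock protein HSP27, had 101, 81.5 and 92.3 CPM with 5-FU and 40.1, 38.0 and 38.0 CPM with chloroquine (1.24 ± 0.11), whereas HSPA8, the constitutive HSP70, had 1276, 1291 and 1277 CPM with 5-FU and 1813, 1880 and 1735 CPM with chloroquine. In the endoplasmic reticulum list 14 of 23 genes fell and 2 rose, with XBP1, a transcription factor of the unfolded protein response, at 97.4, 99.4 and 100 CPM with 5-FU and 176, 177 and 190 CPM with chloroquine (-0.87 ± 0.05).

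Glycolytic and hypoxia-induced genes were lower with 5-FU in 17 of 28 cases and higher in 5. PDK1, the kinase that shuts pyruvate out of mitochondria, had 13.5, 16.2 and 15.2 CPM with 5-FU and 57.8, 60.6 and 57.5 CPM with chloroquine (-1.97 ± 0.07), and NDRG1, a hypoxia-responsive gene, had 20.9 to 26.1 CPM with 5-FU and 77.9 to 79.1 CPM with chloroquine. ALDOC, a brain-type aldolase, went the other way (1.08 ± 0.09). Transcripts of the mitochondrial genome took 3.23 ± 0.38% of the counts with 5-FU, 2.60 ± 0.35% with chloroquine (SD, n = 3 each) and 1.72 ± 0.12% in vehicle (n = 4). This share counts every gene named MT-. The 13 mRNAs among them had together 18851 to 23521 CPM with 5-FU and 18033 to 23829 CPM with chloroquine, and these ranges overlapped. The mRNAs split, although they are cut from shared precursors. MT-CO1 had 5284, 6149 and 5920 CPM with 5-FU and 3111, 3251 and 2659 CPM with chloroquine (0.94 ± 0.07, edgeR adjusted p = 9.34e-08), and MT-ND1 rose by 0.66 ± 0.12. MT-ATP6 had 1251, 1638 and 1536 CPM with 5-FU and 2560, 2660 and 2023 CPM with chloroquine (-0.71 ± 0.11), and MT-ND2 fell by 0.61 (SE 0.14). In the libraries with few COL1A2 counts alone the log2 fold change of MT-ND2 was -0.32. In all, 2 of the 13 rose, 7 fell and 4 were not called.

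Interferon-stimulated genes were higher with 5-FU in 13 of 21 tested cases, lower in 3 and not called in 5, with a median log2 fold change of 0.59, the highest of the 36 lists plotted. IRF7, a transcription factor of the type I interferon response, had 7.36, 5.84 and 4.67 CPM with 5-FU and 1.15, 1.63 and 1.47 CPM with chloroquine (2.07 ± 0.19, edgeR adjusted p = 4.91e-07). DDX58, the RNA sensor RIG-I, had 18.2, 21.1 and 19.0 CPM with 5-FU and 5.19, 6.47 and 6.27 CPM with chloroquine (1.70 ± 0.12). ISG15, a ubiquitin-like modifier, went the other way at 7.70, 5.01 and 5.06 CPM with 5-FU and 9.64, 9.55 and 10.6 CPM with chloroquine, and vehicle had 3.35 to 4.28 CPM. Most of the list is weakly expressed: with a filter at 10 CPM in 3 libraries, 5 members rose.

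Among cytokine and NF-kB genes 6 of 14 rose and 4 fell. LIF, a cytokine of the interleukin-6 family, had 8.72, 7.54 and 8.77 CPM with 5-FU and 1.33, 1.67 and 1.24 CPM with chloroquine (2.55 ± 0.14), and RELB, a subunit of NF-kB, had 9.61 to 13.2 CPM with 5-FU, 4.75 to 5.65 CPM with chloroquine and 1.5 to 2.4 CPM in vehicle. CXCL8, the chemokine interleukin-8, was at most 1.54 CPM in any of the 6 libraries. Its fall (-1.32 ± 0.52, edgeR adjusted p = 0.0427) rests on few counts.

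Several of the strongest differences belonged to no list. RENBP, an enzyme of amino sugar metabolism, had 25.3, 18 and 21.8 CPM with 5-FU and 1.93, 1.95 and 2.49 CPM with chloroquine (3.36 ± 0.16). PDE11A, a cyclic nucleotide phosphodiesterase, had 28.1, 29.3 and 29.2 CPM with 5-FU and 2.75, 3.44 and 4.29 CPM with chloroquine (3.06 ± 0.11). ANXA1, a phospholipid-binding annexin, had 53.1, 60.1 and 54.0 CPM with 5-FU and 8.22, 9.32 and 7.40 CPM with chloroquine (2.74 ± 0.12). With chloroquine RENBP and PDE11A overlapped the vehicle libraries, and ANXA1 lay just above their 4.28 to 7.01 CPM. CSPG4, a membrane proteoglycan (3.23 ± 0.18), NES, the intermediate filament nestin (2.74 ± 0.18), COLEC11, a collectin (2.79 ± 0.19), and SYT11, a synaptotagmin (2.66 ± 0.18), rose as well. ZNF503-AS1 (3.38 ± 0.15) is an antisense transcript, and without a statement on strand its reads and those of ZNF503 cannot be told apart. MIR3648-2 (3.82 ± 0.54) has near-identical copies, so both values are uncertain.

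On the lower side, ONECUT3, a homeobox transcription factor, had 1.36, 1.84 and 0.917 CPM with 5-FU and 8.95, 7.96 and 7.01 CPM with chloroquine, while vehicle had 0.206 to 0.55 CPM. Both drugs were above vehicle for ONECUT3, chloroquine by more (-2.54 ± 0.24 directly, edgeR adjusted p = 7.34e-07). GPR50, an orphan receptor related to the melatonin receptors, had 0.823 to 1.01 CPM with 5-FU, 5.61 to 6.47 CPM with chloroquine and 1.15 to 1.80 CPM in vehicle. CAMK2B, a calcium-dependent kinase, had 2.76 to 3.29 CPM with 5-FU and 15.5 to 18.2 CPM with chloroquine, and PRKCB, protein kinase C beta, 2.37 to 2.90 CPM with 5-FU and 11.7 to 13.4 CPM with chloroquine. PCK2, a mitochondrial enzyme of gluconeogenesis, fell by 2.09 (SE 0.14) and HFM1, a meiotic helicase, by 2.15 (SE 0.16).

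Markers of nerve cells moved in both directions. MAP2, a microtubule-associated protein of dendrites, had 6.83, 7.95 and 7.26 CPM with 5-FU and 0.459, 0.588 and 0.283 CPM with chloroquine (4.01 ± 0.20, edgeR adjusted p = 1.97e-09). The chloroquine levels rest on few counts, so the size of the MAP2 ratio is less firm than its direction. NEFL, the light neurofilament chain, had 77.2, 72.6 and 72.5 CPM with 5-FU and 148, 153 and 158 CPM with chloroquine (-1.05 ± 0.05). Of 12 tested neuronal and glial markers 5 rose, 4 fell and 3 were not called. The summed level of those 12 genes was 376 to 383 CPM with 5-FU and 413 to 426 CPM with chloroquine, without overlap.

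Long genes stood lower with 5-FU. Among 11888 protein-coding genes with a mean of at least 1 on the log2 CPM scale and a span in GENCODE release 29, those under 10 kb were called higher in 40.4% and lower in 22.4% of cases (n = 2134). Of genes of 100 to 300 kb, 14.9% were higher and 56.1% lower (n = 1988), and of genes over 300 kb, 10.4% and 64.6% (n = 480). The median log2 fold change was 0.12 in the shortest and -0.40 in the longest class. In the longest class it was -0.37 between libraries with few COL1A2 counts and -0.36 between those with many, and the medians over vehicle were -0.27 with 5-FU and 0.11 with chloroquine. Genomic span goes with transcript length, so the comparison was repeated among genes whose longest transcript has 2 to 4 kb. There, 40.9% of genes under 10 kb were higher and 23.4% lower (n = 992), and 24.4% of genes over 100 kb were higher and 44.0% lower (n = 484). In these genes over 100 kb the medians over vehicle were -0.21 with 5-FU and -0.09 with chloroquine, so that both lay below vehicle. These shares are descriptions across genes, which are not independent replicates, and the part of RNA integrity or of the library preparation in them was not tested.

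**Figure D5:**
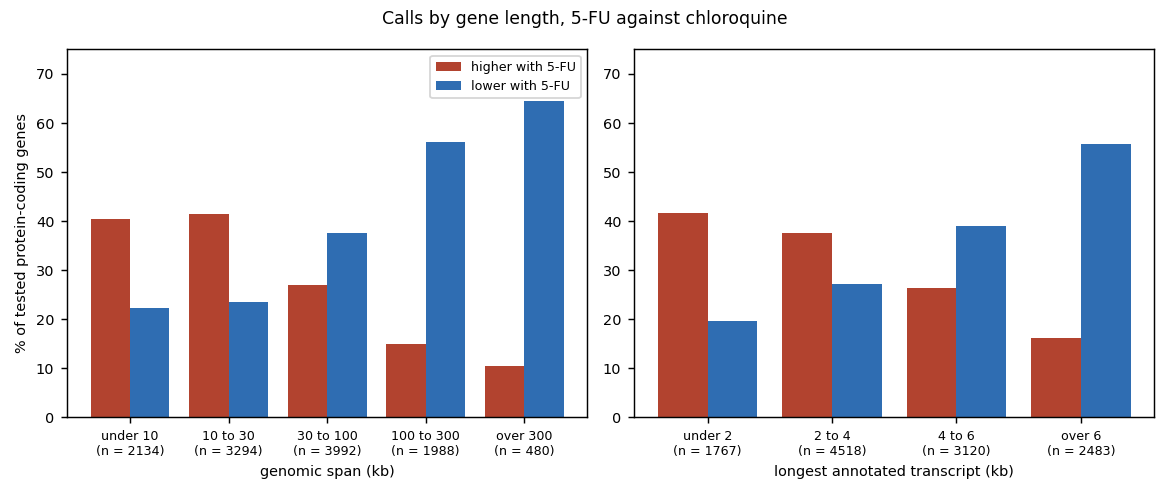
Share of tested protein-coding genes called higher (red) or lower (blue) with 5-FU against chloroquine, by genomic span (left) and by the longest annotated transcript (right), in percent of the genes of each class. The lower share grows from 22.4% to 64.6% over the 5 span classes, and the higher share shrinks from 40.4% to 10.4%.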

How the data were processed

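RNA of 13 libraries was sequenced after directional library preparation with a NEBNext Ultra II kit, per the labels' protocols. Raw counts for each gene symbol are what the authors deposited. Aligner, annotation and use of strand: not given in the sources used here. DESeq, without version or role, and GRCm38, a mouse build, are listed in the submitters' processing notes, although the symbols are human. Totals ran from 17834539 to 23679833 counts, so low genes carry most counting error.

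Genes passing filterByExpr of edgeR 4.0.16 (R 4.3.3) were kept, with 99.8% or more of every library's counts. Scaling used TMM. All 13 libraries entered a quasi-likelihood model with group means, and 5-FU minus chloroquine was tested with Benjamini-Hochberg adjustment at 0.05. Contrasts with vehicle share the vehicle libraries and are only set side by side. SE is the absolute log2 fold change over the root of F. The test was also run on counts simulated from the fitted spread, with few genes changed and no kinds of library. That setting differs from these data, so it says little about the calls here. No pair of libraries within a group was as alike as counting noise (chi-square per gene of at least 1.58). This value was 5.46 to 20.4 in 5-FU pairs, 1.58 to 7.06 in chloroquine pairs and 2.11 to 6.84 in vehicle pairs. The 5-FU libraries thus varied most by this measure, while the model shares its estimate of the spread over all groups.

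The kind of library was set by 100 or more COL1A2 counts. The members and the 47 gene lists were chosen with earlier results of these data known. Named genes were the 12 highest and the 12 lowest called genes by fold change (mean log2 CPM of at least 1, no overlap, same call with the library kind in the model), up to 2 called genes per direction from lists with 3 or more called members, and 25 genes of prior interest; many are only summarised, and a few others were named after their values were seen, among them AMY1A, COL1A2, HBB, JDP2 and SLC7A1. Gene types and lengths are from GENCODE release 29 (18760 of 19514 tested genes matched by symbol), and promoters from RefSeq (GRCh38.p14). Alternatives were DESeq2 1.42.0, voom of limma 3.58.1, other scalings, filters, subsets and a replicate block.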

Additional observations from a re-analysis of the deposited data

Results flagged for a closer look

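In the vehicle group, the only one here with 4 libraries, a single library lay far from the others for 3 of the 25 genes of prior interest, as measured by its gap relative to the range of the group. SQSTM1 was 36.3 CPM in vehicle library 2, BBC3 was 12.2 CPM in vehicle library 2 and NPM1 was 1309 CPM in vehicle library 1. Chance picks out about 1 in 20 groups by this measure. The direct comparison of 5-FU with chloroquine does not use these libraries other than in the shared estimate of the spread, and groups of 3 libraries were not examined in this way.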

How the results depend on the processing

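The direct comparison changed little with the processing. Against 10684 called genes, the count was 10690 with size factors of DESeq2, 10160 with the Wald test of DESeq2, 10877 with limma-voom, 10768 with no filter on low counts, 7660 with a filter at 10 CPM in 3 libraries and 9420 in the 6 libraries alone. It was 8514 in the libraries with few COL1A2 counts, where chloroquine library 3 stood alone and was assumed to vary like the other groups. It was 10904 in those with many, where 5-FU library 2 stood alone and the spread came from chloroquine libraries 1 and 2 only. These 2 counts say little about stability. When called genes also had to differ by a log2 of 1 or more, 2167 genes remained, 1352 higher and 815 lower. Leaving out each library in turn gave 9560 to 10766 called genes, 4672 to 5480 higher and 4763 to 5438 lower. A replicate block gave 10769 in all libraries and 9082 in the 6 alone; the residuals of same-numbered 5-FU and chloroquine libraries correlated at -0.45, 0.46 and 0.51, so the numbers did not pair them. Of 183 named genes 181 were called. In 4712 recomputed values for them, 4544 kept call and direction or stayed not called. In 168 the direction held and the call was lost, and 0 reversed. A change of sign was not counted in BBC3 and HSPA1A while they stayed not called. Most named genes were picked because they were called in these data, so their stability was largely set by that choice. Scaling by library size turned the medians of the autophagy and the pyrimidine lists from below to above 0 (0.08 and 0.02). The median of the fibroblast list, -2.43 over 6 tested genes, was 1.15 when the libraries with few COL1A2 counts were fitted alone. That fit chose its tested genes anew, so its members may differ. For the 6 genes themselves, the median log2 ratio of mean CPM between those libraries was 0.11. With 3 libraries per group and 1 dose per drug, genes such as CXCL3, CXCL8, MT1F, MT2A and PSMB10 lost their call under several alternatives.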

Other observations

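Of 13 tested polyamine genes 6 rose, 4 fell and 3 were not called. SAT1, which acetylates spermidine and spermine for export, had 66.0, 67.5 and 68.4 CPM with 5-FU and 24.8, 23.7 and 24.2 CPM with chloroquine (log2 fold change 1.47 ± 0.06 SE, edgeR adjusted p = 2.98e-10). AMD1, which makes the donor for spermidine synthesis, had 142, 176 and 167 CPM with 5-FU and 327, 330 and 333 CPM with chloroquine (-1.03 ± 0.07), and AZIN1, which protects ornithine decarboxylase from its antizyme, had 129 to 155 CPM with 5-FU and 238 to 244 CPM with chloroquine. Nuclear long noncoding RNAs and hosts of small nucleolar RNAs also parted. MALAT1 had 173, 254 and 215 CPM with 5-FU and 93.9, 89.2 and 107 CPM with chloroquine (1.14 ± 0.12), and SNHG1 had 246 to 279 CPM with 5-FU and 138 to 143 CPM with chloroquine, while SNHG5 had 49.6 to 54.7 CPM with 5-FU and 112 to 136 CPM with chloroquine. Of 14 tested genes of that list 3 rose and 9 fell.

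Keratin 8, an intermediate filament of simple epithelia, was picked after its values were seen. KRT8 had 16.3, 12.6 and 12.5 CPM with 5-FU and 2.98, 3.30 and 3.62 CPM with chloroquine (2.07 ± 0.12, edgeR adjusted p = 6.4e-09). ANKRD1, a target of YAP and TEAD, had 12.6, 16.3 and 14 CPM with 5-FU, 2.85, 4.21 and 4.58 CPM with chloroquine and 0.584 to 0.98 CPM in vehicle. Of 2134 tested long noncoding RNAs 28.5% were higher and 15.1% lower with 5-FU.

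In cells given both drugs, the mean CPM of 1005 of the 1352 genes that were higher with 5-FU by a log2 of at least 1 lay between the single drugs, as did 625 of the 815 genes that were lower by as much. These genes were picked from the same 5-FU and chloroquine libraries, so the counts describe them and test nothing. SELENOW, at 24.3 ± 1.64 CPM in the combination (SD, n = 3), lay with chloroquine, SLC7A11, at 4.48 ± 0.34 CPM, lay with 5-FU, and INSIG1, at 125 ± 2.79 CPM, lay between. GPNMB, at 11.7 ± 0.49 CPM in the combination, was beyond both single drugs.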
